A study of Mus musculus with 24 samples.

Results

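The nuclear-encoded subunits of respiratory complex I were taken from the deposited expression table by symbol, as every gene named Ndufa, Ndufab, Ndufb, Ndufc, Ndufs or Ndufv followed by a number. The pattern found 36 of 49452 genes of the table. These were 35 subunit symbols and a second gene that also carries the symbol Ndufa13 (ENSMUSG00000048967, named Yjefn3 in the GENCODE annotation), which was kept in all counts and left out of levels and sums. Assembly factors were not part of the set, and Ndufb4 and Ndufa11, whose symbols are joined to those of other genes in the table, fell outside the pattern.

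Complex I (NADH:ubiquinone oxidoreductase) is the entry point of electrons from NADH into the respiratory chain of the inner mitochondrial membrane. Its peripheral arm carries an N-module, which oxidizes NADH, and a Q-module, which hands the electrons to ubiquinone, while its membrane arm pumps protons. The core of the membrane arm is encoded by mitochondrial DNA, and all other subunits are made from nuclear genes and imported. In brown adipocytes the proton gradient built by the respiratory chain can be released as heat through UCP1.

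RNA was measured by poly-A RNA-Seq in primary stromal-vascular fraction (SVF) precursor cells of C57BL/6 mice, taken from interscapular brown adipose tissue (BAT) or perigonadal visceral white adipose tissue (vWAT). By the methods of the study the donors were males of 6 to 8 weeks. Cells of all groups were nucleofected, either with a small interfering RNA against the long noncoding RNA H19 (siH19) or with a non-targeting one (siCtrl), and were collected at day 0 (d0) or at day 3 (d3) of differentiation. This gave 8 groups of 3 libraries each. The induction mix held insulin, dexamethasone, rosiglitazone and IBMX for vWAT cells, and indomethacin and triiodothyronine were added for BAT cells, for which the sources differ on the other agents. After induction, vWAT cells were kept in rosiglitazone and BAT cells in triiodothyronine. Depot and medium, and also the sample series named in the labels, therefore cannot be told apart. The labels do not say whether the 3 libraries of a group came from separate mice or cultures, so p-values measure the spread between these libraries only, which may be technical. In such bulk samples, fewer cells of a type and less RNA per cell cannot be told apart.

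H19 was lower with siH19 in all 4 comparisons, at 12.04 to 16.9 FPKM (fragments scaled per length of the gene and size of the library) against 83.2 to 99.7 in BAT d3 cells and at 0.291 to 0.966 against 8.19 to 8.90 in vWAT d3 cells. Summed FPKM per library ran from 710794 to 841456, Pearson r across genes within groups was 0.974 to 0.981, and no 2 columns were identical. Of the 24 libraries, 22 were closest to one of their own group. The exceptions were vWAT siCtrl d3 replicates 1 and 3, which lay closest to vWAT siH19 d3 replicate 1. Macrophage transcripts were present in all groups, and Ucp1 was listed at 0 in all vWAT libraries.

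All 35 subunits were expressed in every library, at 32.1 to 1434 FPKM, with no value at 0 among the 864 values of the 36 genes. FPKM are scaled per length, so levels can be set beside each other across genes. Ndufa4, at first assigned to complex I and now counted as a subunit of complex IV, had the highest group mean in all 8 groups. Ndufs4, an accessory subunit at the junction of the N- and Q-modules whose loss causes Leigh-like disease, had the lowest. In BAT siCtrl d3 cells Ndufa4 stood at 1328, 1388 and 1434 FPKM and Ndufs4 at 83.2, 88.1 and 89.9 FPKM. Next in the BAT siCtrl d3 order came Ndufc1, a small membrane-arm subunit, at 962, 1081 and 1060 FPKM. The libraries of Ndufa4, Ndufc1 and Ndufs4 did not overlap. Over the 35 subunits, the highest group mean was 11.8 to 18.7 times the lowest, depending on the group. The SD across subunits on the log2 scale was 0.82 to 0.86, and the median coefficient of variation between replicates was 3.4% to 7.2%.

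**Figure D1:**
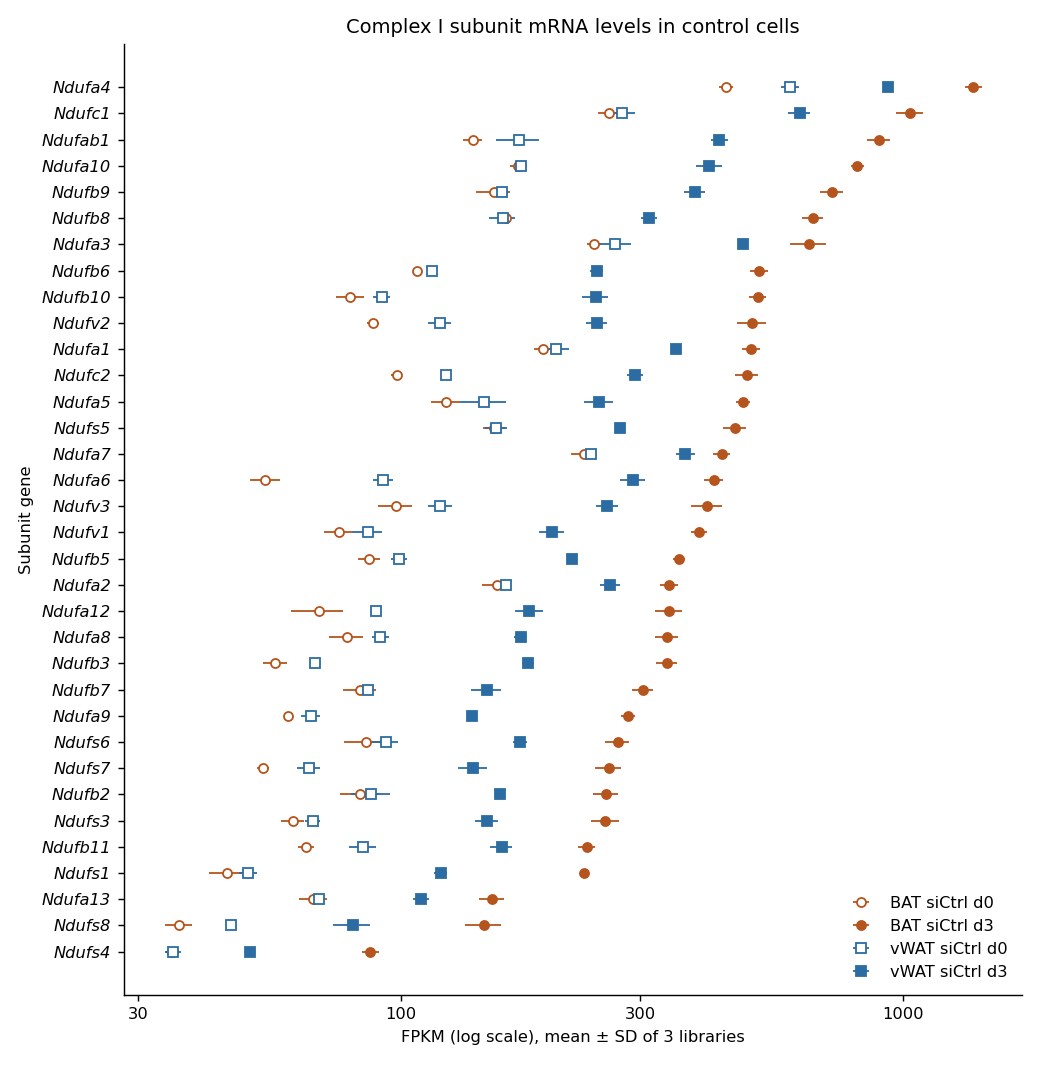
FPKM on a log axis of 34 of the 35 subunits (vertical axis, ordered by the BAT siCtrl d3 mean) in the 4 siCtrl groups; symbols are means and bars the SD of 3 libraries. Ndufa4 leads and Ndufs4 is last in each group, and filled symbols (d3) lie to the right of the open ones (d0) of the same depot for all 34 genes shown.

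The order of the subunits was largely shared between groups. As a description over 35 genes of the same table, Spearman's rho of the group means was 0.988 between BAT siCtrl d3 and BAT siH19 d3 and 0.996 between the same groups of vWAT. It was lower between days in BAT siCtrl cells, at 0.821, where single subunits changed place. Ndufa6 shows this. It stood at 58.0, 51.0 and 52.4 FPKM in BAT siCtrl d0 cells, rank 31 of 35 by mean, and at 400, 435 and 429 FPKM at d3, rank 17 of 35.

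Summed over the 35 subunits, complex I transcripts made up 0.579% ± 0.015 (SD, n = 3) of all FPKM of a library in BAT siCtrl d0 cells and 2.01% ± 0.063 at d3, which in summed FPKM was a ratio of 3.96. In vWAT siCtrl cells the shares were 0.631% ± 0.0048 and 1.16% ± 0.032, a ratio of 2.01. With siH19, the share at d3 was 1.71% ± 0.038 in BAT and 1.20% ± 0.019 in vWAT. The BAT d3 libraries ranged from 1.94% to 2.05% with siCtrl and from 1.69% to 1.76% with siH19 and did not overlap. At d0 the shares with siH19 were 0.548% ± 0.0024 in BAT and 0.593% ± 0.024 in vWAT.

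**Figure D2:**
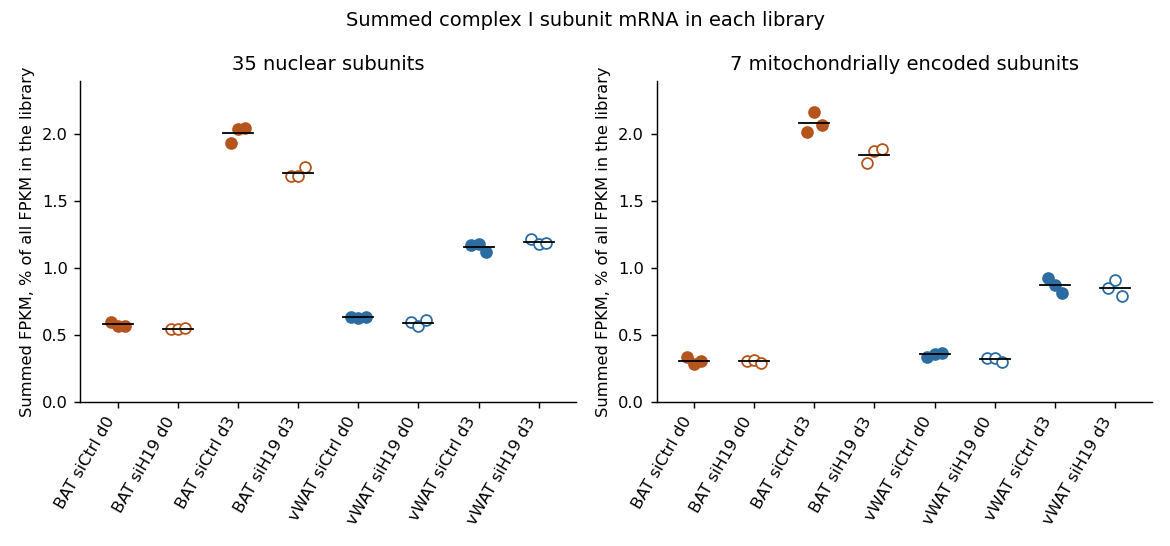
Share of all FPKM of a library (percent, vertical axis) taken by the 35 nuclear subunits (left) and by the 7 mitochondrially encoded subunits (right) in the 8 groups; points are libraries (filled, siCtrl; open, siH19; orange, BAT; blue, vWAT) and lines are means. The nuclear subunits reach 2.01% in BAT siCtrl d3 and 1.16% in vWAT siCtrl d3, and BAT siH19 d3 lies between them at 1.71%.

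The comparison of d3 with d0 asks how complex I transcripts moved as precursors differentiated. In BAT siCtrl cells all 36 genes were called higher at d3, against 29.9% of all genes tested (limma on log2(FPKM + 1), Benjamini-Hochberg adjusted p under 0.05 and at least 1.3-fold). Their log2 fold changes ran from 0.91 to 2.95 with a median of 2.04, while the median over all genes was -0.10. Among 1974 genes at least as abundant as the lowest of the 35 subunits, 40.7% were called higher. By role, the medians were 2.37 for the N-module core, 2.16 for the Q-module core, 2.04 for the accessory B and C subunits of the membrane arm, 1.69 for the accessory A subunits and 1.62 for the accessory S and V subunits.

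Ndufa6, a LYR-motif subunit that holds an acyl carrier protein at the matrix arm, rose most in BAT siCtrl cells, 7.83-fold in mean FPKM (log2 fold change 2.95, SE 0.060, adjusted p = 6.83e-08 by limma). Ndufab1, that acyl carrier protein, went from 146, 138 and 134 FPKM to 841, 929 and 920 FPKM (2.68, SE 0.053, adjusted p = 6.46e-08). Ndufb10, a membrane-arm subunit facing the intermembrane space, went from 84.7, 79.0 and 74.6 FPKM to 493, 529 and 520 FPKM (2.68, SE 0.056, adjusted p = 7.28e-08). For each of these 3 genes the d3 libraries lay far above all d0 libraries. The smallest rises were those of Ndufa7 (0.91, 1.88-fold) and Ndufa2 (1.14), both accessory subunits of the peripheral arm. Ndufa7 was measured at 246, 224 and 225 FPKM at d0 and at 420, 454 and 435 FPKM at d3 and passed from rank 4 to rank 16 of the 35.

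In vWAT siCtrl cells all 36 genes were again called higher at d3, beside 26.3% of all genes tested, with a median log2 fold change of 1.02 and a range of 0.50 to 1.64. Ndufa6 led here too, from 96.8, 88.4 and 91.2 FPKM to 301, 298 and 271 FPKM (1.64, SE 0.056, adjusted p = 1.36e-06). Ndufb10 stood at 1.40 (SE 0.055, adjusted p = 2.32e-06). Ndufs4 rose least, by 0.50, from 36.3, 33.8 and 35.4 FPKM to 49.9, 50.4 and 50.1 FPKM. The rises of the 35 subunits in BAT and vWAT siCtrl cells, which share no library, had a Pearson r of 0.889 and a Spearman rho of 0.881 across genes, given as a description since genes of 1 table are not independent.

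With siH19 the rise was seen as well. In BAT siH19 cells 36 of 36 genes were called higher (30.8% of all genes), with a median of 1.92, and the leading genes were Ndufa6 at 2.68 (SE 0.077, adjusted p = 2.64e-07), Ndufab1 at 2.57 (SE 0.044, adjusted p = 4.94e-08) and Ndufb10 at 2.49 (SE 0.044, adjusted p = 5.48e-08). In vWAT siH19 cells 35 of 36 were called higher (28.2% of all genes), with a median of 1.22 and with Ndufa6 at 1.87 (SE 0.062, adjusted p = 1.1e-06) and Ndufb3, a membrane-arm subunit, at 1.63 (SE 0.055) among the largest. The gene not called was the second Ndufa13 entry, which lay between 1.15 and 5.19 FPKM over all 24 libraries. These fits share their d3 or d0 libraries with other comparisons given here.

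The rise was larger in BAT than in vWAT. The interaction of depot and day over the 12 siCtrl libraries was called for 35 of 36 genes, all higher in BAT (adjusted p under 0.05, no minimum fold). Of all genes, 24.9% were called higher. Among 2341 genes at least as abundant as the lowest of the 35 subunits, 41.1% were called higher. The median of the interaction over the members was 1.03. Ndufv2, an iron-sulfur protein of the N-module, had the largest interaction at 1.46 (SE 0.081, adjusted p = 1.16e-07). It went from 88.0, 90.4 and 85.5 FPKM to 463, 516 and 524 FPKM in BAT and from 113, 122 and 124 FPKM to 247, 257 and 233 FPKM in vWAT, so that the order of the depots turned between the days. Ndufab1 followed with 1.35 (SE 0.096, adjusted p = 7.35e-07) and Ndufa6 with 1.303 (SE 0.086, adjusted p = 4.23e-07). The smallest called interaction was that of Ndufa7, at 0.29, and the second Ndufa13 entry was not called. Adipocyte marker transcripts (5 genes) moved with these rises, from summed levels of 2982 to 3246 FPKM at d0 to 33460 to 34919 FPKM at d3 in BAT siCtrl and from 3920 to 3944 FPKM to 17322 to 18121 FPKM in vWAT siCtrl. Over the same days the 6 precursor and stromal markers went from 3127 to 3391 FPKM to 619 to 727 FPKM in BAT and from 2189.6 to 2275 FPKM to 1384 to 1488 FPKM in vWAT. The 5 macrophage markers overlapped between the days in BAT (128 to 159.9 and 125 to 157 FPKM) and went from 273 to 304 FPKM to 458 to 500.4 FPKM in vWAT. The part of these markers in the result was not tested.

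Other respiratory chain transcripts rose as well. The 7 mitochondrially encoded complex I subunits were all called higher at d3 in both depots, with medians of 2.45 in BAT siCtrl and 1.45 in vWAT siCtrl cells, somewhat above those of the nuclear subunits. Of the 15 assembly factors, 15 were called higher in BAT (median 1.47) and 11 in vWAT (median 0.65). Of the 38 nuclear subunits of complexes III to V, 36 were called higher in BAT (median 1.95) and 37 in vWAT (median 1.01). Of the 7 regulators, 4 were called higher in BAT siCtrl cells, with Ppargc1b at 3.55, Ppargc1a at 2.77 and Esrra, the estrogen-related receptor that works with these coactivators, at 1.85, and 2 lower, Yy1 at -0.77 and Nrf1 at -0.58. The interaction of depot and day in siCtrl cells was called higher for most of these respiratory chain transcripts too. Among the subunits of complexes III to V, the exceptions were Atp5j, Cox4i2, Cox6a2 and Cox6b2. Among the mitochondrially encoded subunits the exception was ND4L, and among the assembly factors Ndufaf6 and Nubpl. Differences between lists were not tested.

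**Figure D3:**
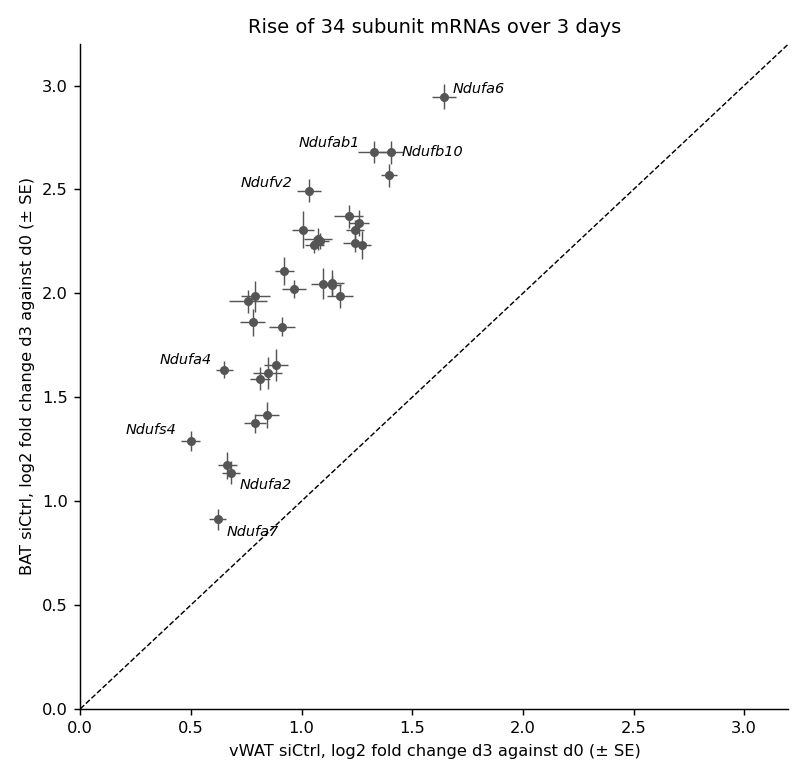
Log2 fold change of FPKM + 1 from d0 to d3 in vWAT siCtrl (horizontal axis) against BAT siCtrl (vertical axis) for 34 of the 35 subunits; points are fitted values, bars their SE and the dashed line marks equal change. All points lie above the line, from Ndufa7 (0.91 in BAT) to Ndufa6 (2.95 in BAT).

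Between the depots themselves, subunit levels differed little at d0 and clearly at d3. At d0, 4 of 36 members were called lower in BAT siCtrl than in vWAT siCtrl cells, beside 21.0% of all genes. Without the minimum fold, 16 members had an adjusted p under 0.05, beside 33.2% of all genes. The median of the members was -0.16, close to the -0.13 of all genes, and 35 of the 36 estimates were negative, but 15 of them turned positive when libraries were rescaled by median ratios. The called genes were Ndufa6 (-0.77, SE 0.062, adjusted p = 0.000119), Ndufv2 (-0.44, SE 0.049, adjusted p = 0.000546), Ndufa4 (-0.42, SE 0.042, adjusted p = 0.000326) and Ndufa12 (-0.38), an accessory subunit of the peripheral arm. Only Ndufa6 was still called after that rescaling.

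At d3, 34 of 36 members were called higher in BAT siCtrl than in vWAT siCtrl cells, beside 16.5% of all genes. Among 1821 genes at least as abundant as the lowest of the 35 subunits, 32.4% were called higher. The median of the members was 0.82, against -0.16 over all genes. The genes with the largest differences were the membrane-arm subunits Ndufb8, at 633, 659 and 695 FPKM against 324, 312 and 301 FPKM (1.08, SE 0.047, adjusted p = 3.69e-06), Ndufb6 (1.07, SE 0.042, adjusted p = 2.51e-06) and Ndufb10 (1.07, SE 0.053, adjusted p = 6.31e-06). None of their libraries overlapped between depots. Ndufa6, which rose most in both depots, differed by 0.54 at d3, less than the median of the members, having been lower in BAT at d0. Ndufa7 had an adjusted p of 0.0035 but a log2 difference of 0.24, under 1.3-fold, and the second Ndufa13 entry was not called.

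Because the members rose together, the stretch around their transcription starts was searched for 4 short motifs, on both strands, in RefSeq sequence of build GRCm38.p6 (250 bases before to 50 after the start). Of the 35 subunits 31 were matched, and 4, Ndufa2, Ndufb9 and Ndufs1 among them, were not. The motifs were CGCANGCG (named for NRF1), AAGGTCA (ERR), CCGGAAGT (ETS, as bound by GABPA) and AAGATGG (YY1). At least 1 of them was found in 16 of the 31 genes and none in 15. AAGATGG was present in 7 genes (22.6%), against 7.28% of 27025 genes with such a window. In all 7 it lay after the start on the strand of the gene, which held for 1.54% of all genes (this split was chosen after the positions were seen), and its ATG was the annotated start codon in all 7. CGCANGCG was present in 8 genes (25.8%, against 9.22% of all genes), AAGGTCA in 2 (6.45% against 5.38%) and CCGGAAGT in 1 (3.23% against 4.31%). The 7 stretches with AAGATGG are printed below, each 5′ to 3′ on the strand of the gene with the motif in capitals. They were picked for these letters, so the letters they share are not a finding, and likeness outside the motif was not tested.
Ndufs7, chr10:80249462-80249491, plus strand: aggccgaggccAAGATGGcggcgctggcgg
Ndufa9, chr6:126849097-126849126, minus strand: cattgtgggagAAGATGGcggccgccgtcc
Ndufs6, chr13:73328433-73328462, minus strand: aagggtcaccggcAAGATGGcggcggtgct
Ndufs4, chr13:114388045-114388074, minus strand: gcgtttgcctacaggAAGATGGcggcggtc
Ndufc1, chr3:51408915-51408944, minus strand: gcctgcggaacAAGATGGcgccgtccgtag
Ndufb8, chr19:44555393-44555422, minus strand: tgaaccgcggagaaggtgAAGATGGctgcc
Ndufa3, chr7:3617384-3617413, plus strand: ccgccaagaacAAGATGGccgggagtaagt
The motif began 23 to 39 bases from the start, counting the start as 1.

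The CGCANGCG motif is shown for 3 of the 8 genes that held it, again in capitals and on the strand of the gene. Ndufa7, which had the smallest rise in BAT siCtrl cells (0.91), held the motif too and is not printed. Ndufb10 held it in 2 places and the first is printed.
Ndufb10, chr17:24724431-24724460, minus strand: gctgcccactaCGCAGGCGcagctgtcacc
Ndufa6, chr15:82354249-82354278, minus strand: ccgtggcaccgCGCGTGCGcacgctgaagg
Ndufa12, chr10:94198905-94198934, plus strand: ctccagctctgCGCCTGCGtagaacgacct
In Ndufa6 and Ndufa12 the match is on the opposite strand, so the letters read as its reverse complement. Members with and without these letters had medians close to each other. The median log2 rise in BAT siCtrl cells was 2.03 in the 8 genes with CGCANGCG and 2.04 in the 23 without, and it was 1.99 in the 7 genes with AAGATGG and 2.05 in the 24 without. A match is a description of letters and not of binding.

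The comparison of siH19 with siCtrl asks whether complex I transcripts differed with the siRNA against H19. All siH19 libraries name the same siRNA in their titles, so loss of H19 and other effects of that siRNA cannot be told apart. In BAT d3 cells all 36 members had a lower mean with siH19, with log2 fold changes of -0.04 to -0.37 and a median of -0.23, that is a ratio of 0.853 to the control level, whereas the median over all genes was 0.05. None of the 36 passed the call, which needs 1.3-fold, beside 2.18% of all genes called lower (limma). Without the minimum fold, 25 had an adjusted p under 0.05, beside 5.61% of all genes, and 33 had an unadjusted p under 0.05. Counts at unadjusted p, here and below, have no share of all genes beside them and are descriptions only. In 30 of 36 members every siH19 library lay below every siCtrl library, beside 13.1% of all genes. Among 1508 genes at least as abundant as the lowest of the 35 subunits, the median was -0.003.

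Ndufv1, the subunit that binds NADH and FMN at the head of the N-module (ENSMUSG00000037916, chromosome 19, 4007497 to 4012806 as given with the deposited expression values), was measured at 376, 403 and 401 FPKM with siCtrl and at 303, 292 and 319 FPKM with siH19. Its log2 fold change was -0.37 (SE 0.048, 95% interval -0.48 to -0.25, adjusted p = 0.00554). Ndufa6 (ENSMUSG00000022450, chromosome 15, 82350139 to 82354291) stood at 400, 435 and 429 FPKM against 325, 322 and 345 FPKM, a difference of -0.35 (SE 0.047, adjusted p = 0.00588). Ndufb7, a membrane-arm subunit on the intermembrane side (ENSMUSG00000033938, chromosome 8, 83566671 to 83571626), stood at 290, 302 and 319 FPKM against 244, 246 and 250 FPKM, a difference of -0.30 (SE 0.043, adjusted p = 0.00736). The siH19 libraries lay below all siCtrl libraries for each of the 3 genes.

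By role, an adjusted p under 0.05 was reached by 3 of 3 genes of the N-module core (median -0.26), 2 of 4 of the Q-module core (-0.25), 8 of 12 accessory A genes (-0.25), 10 of 11 accessory B and C genes (-0.23), Ndufab1 (-0.28, adjusted p = 0.0162) and Ndufa4 (-0.18, adjusted p = 0.0476). None of the 4 accessory S and V subunits (Ndufs4, Ndufs5, Ndufs6 and Ndufv3) reached it, with a median of -0.15. Ndufs7 of the Q-module, which carries the last iron-sulfur cluster before ubiquinone, was among those that did (-0.35, adjusted p = 0.0181). With siH19, Ndufv3 stood at 85.1% of its siCtrl mean and Ndufs1 of the N-module core at 89.3%. All 4 accessory S and V subunits were called lower in the interaction of depot and siRNA below, while Ndufs1, Ndufs3 and Ndufs8 were not. Differences between roles were not tested. The smallest differences were those of Ndufa2 (328, 343 and 356 FPKM against 318, 340 and 339 FPKM) and Ndufa7 (420, 454 and 435 FPKM against 434, 381 and 447 FPKM). Their libraries overlapped between the groups. The estimate for Ndufa2 was -0.04 (95% interval -0.15 to 0.07, adjusted p = 0.576) and that for Ndufa7 -0.06 (-0.22 to 0.10, adjusted p = 0.615). Ndufb4 (-0.05, adjusted p = 0.577) and Ndufa11 (-0.23, adjusted p = 0.0401), measured as joined entries, lay within the range of the members.

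**Figure D4:**
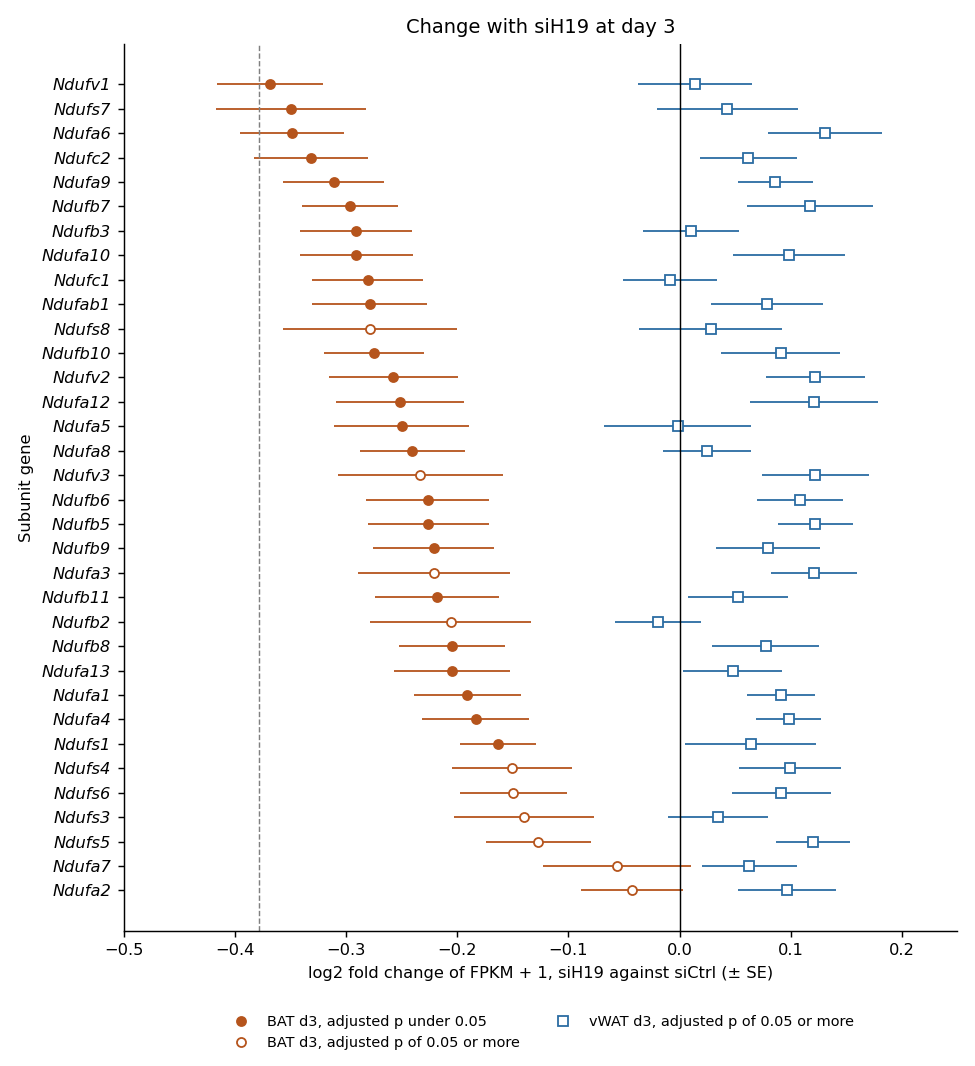
Log2 fold change of FPKM + 1 between siH19 and siCtrl at d3 (horizontal axis, ± SE) for 34 of the 35 subunits, in BAT (circles, filled where the adjusted p is under 0.05) and vWAT (squares); the dashed line marks a 1.3-fold lower level. All BAT points lie below 0 and right of the dashed line, and most vWAT points lie above 0, up to 0.13.

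Other transcripts of the respiratory chain were compared in the same cells. The 7 mitochondrially encoded complex I subunits had a median of -0.06, and 1 of them, ND1, reached an adjusted p under 0.05 (-0.24, adjusted p = 0.0298). Of 15 assembly factors 12 had negative estimates, with a median of -0.16, and Ndufaf3 was called lower (-0.46, adjusted p = 0.0224). Of 38 nuclear subunits of complexes III to V, 36 had negative estimates with a median of -0.19 and 23 had an adjusted p under 0.05. Cox7a1 (-0.66) and Cox8b (-1.28) of complex IV were called lower and Cox6b2 (0.52) higher. Among 7 regulators of mitochondrial genes, Ppargc1a, a coactivator of mitochondrial biogenesis, fell from a mean of 13.5 to 7.28 FPKM (-0.81, adjusted p = 0.0108) and was the only one called.

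Markers of cell types moved with these differences in BAT d3 cells. The summed level of 6 precursor and stromal markers was 619 to 727 FPKM with siCtrl and 918 to 1051 FPKM with siH19. That of 5 brown adipocyte markers was 516 to 609 FPKM against 310 to 346 FPKM, and Ucp1, the uncoupling protein among them, fell from a mean of 12.1 to 2.85 FPKM (-1.75, adjusted p = 0.0062). The 5 adipocyte markers summed to 33460 to 34919 FPKM against 30507 to 32685 FPKM, and the 5 macrophage markers to 125 to 157 FPKM against 78.8 to 89.8 FPKM. The 4 endothelial markers were near 0 in both groups, at 2.44 to 3.70 FPKM and 2.63 to 3.57 FPKM, while skeletal muscle markers summed to 10.1 to 13.5 FPKM against 13.7 to 17.6 FPKM and mesothelial ones to 1.24 to 3.36 FPKM against 3.35 to 4.16 FPKM. No gene of these lists was at 0 in every library, and 1 skeletal muscle marker stayed under 1 FPKM in all of them. Their part in the lower complex I level was not tested.

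At d0, before differentiation, the members differed less between siH19 and siCtrl. In BAT 30 of 36 estimates were negative with a median of -0.08, none was called by limma (1.32% of all genes were called lower) and 9 had an unadjusted p under 0.05. Ndufs7 alone had an adjusted p under 0.05, beside 1.93% of all genes, at 55.0, 52.3 and 52.4 FPKM with siCtrl and 41.8, 43.4 and 46.1 FPKM with siH19 (-0.28, SE 0.051, adjusted p = 0.0461). After rescaling by median ratios no member did. Ndufb5, a membrane-arm subunit, followed at -0.19 (SE 0.046, adjusted p = 0.0854) and Ndufab1 at -0.17 (SE 0.044, adjusted p = 0.104). In vWAT 31 of 36 estimates were negative with a median of -0.09, none was called (1.20% of all genes) and 11 had an unadjusted p under 0.05. Values were -0.22 for Ndufb3 (SE 0.050, adjusted p = 0.0903) and -0.23 for Ndufs7 (SE 0.058, adjusted p = 0.115). The 95% interval of Ndufs7 in vWAT was -0.37 to -0.09. Adipocyte markers were also lower with siH19 at d0, at 1508 to 2020 FPKM against 2982 to 3246 FPKM in BAT and 2310 to 2605 FPKM against 3920 to 3944 FPKM in vWAT. Macrophage markers were lower with siH19 in BAT, at 97.3 to 98.1 FPKM against 128 to 160 FPKM, and overlapped in vWAT. Precursor and stromal markers were higher with siH19 in vWAT, at 2445.5 to 2607 FPKM against 2189.6 to 2275 FPKM, and overlapped in BAT. Marker lists with smaller sums are not given for d0, and the part of the markers was not tested.

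In vWAT d3 cells the estimates had the other sign. They were positive in 32 of 36 members, between -0.02 and 0.13 with a median of 0.08, and none was called by limma, where 0.00764% of all genes (a single gene) were called higher. An unadjusted p under 0.05 was found for 10 members, again without the share of all genes beside it. Ndufb5 stood at 220, 222 and 218 FPKM with siCtrl and 248, 234 and 237 FPKM with siH19 (0.12, SE 0.034, 95% interval 0.04 to 0.20, adjusted p = 0.364). Ndufs5, an accessory subunit on the intermembrane side, differed by 0.12 (SE 0.033, adjusted p = 0.364) and Ndufa4 by 0.098 (SE 0.029, adjusted p = 0.380). For Ndufv1, which had the largest estimate in BAT, the vWAT interval was -0.11 to 0.14. Cell type markers moved with these estimates here too, without overlap between the groups for adipocyte markers (17322 to 18121 FPKM with siCtrl and 19069 to 20248 FPKM with siH19) and macrophage markers (458 to 500.4 FPKM and 517 to 583 FPKM). Precursor and stromal markers overlapped, at 1384 to 1488 FPKM and 1409 to 1476 FPKM, as did brown adipocyte markers, at 129 to 149 FPKM and 141 to 151 FPKM. Single genes made up most of each of these sums in vWAT siCtrl d3 cells. By mean FPKM, Fabp4 held 14398 of 17828 in the adipocyte sum and Lyz2 443 of 481 in the macrophage sum. Elovl3 held 124 of 141 in the brown adipocyte sum and Col1a1 733 of 1425 in the precursor and stromal sum. The part of the cell type markers in the result was not tested.

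**Figure D5:**
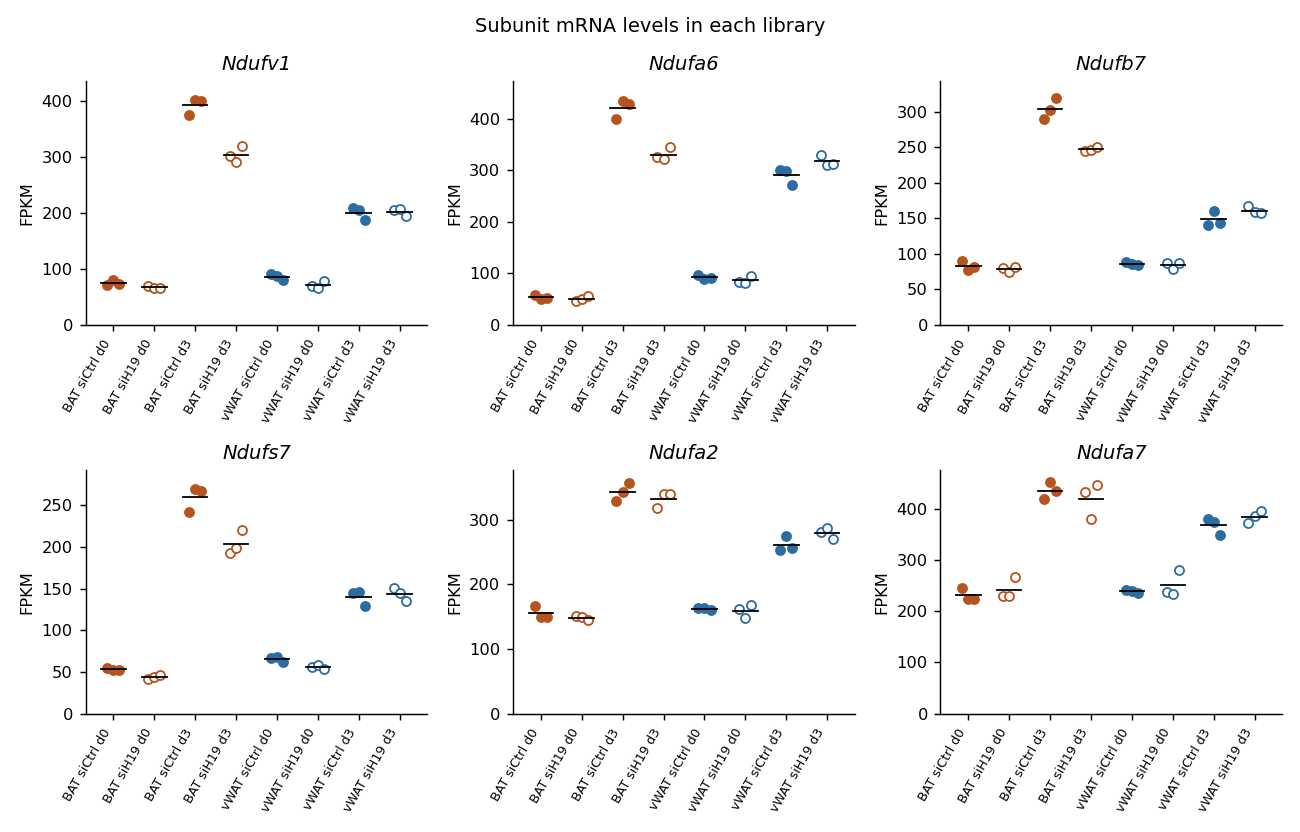
FPKM (vertical axis, from 0) of 6 subunits in the 8 groups; points are libraries (filled, siCtrl; open, siH19; orange, BAT; blue, vWAT) and lines are means. For Ndufv1, Ndufa6, Ndufb7 and Ndufs7 the BAT siH19 d3 points lie below all BAT siCtrl d3 points, whereas for Ndufa2 and Ndufa7 these groups overlap.

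The difference between the depots was tested directly. The interaction of depot and siRNA over the 12 d3 libraries was called for 27 of 36 members, all lower in BAT. Of all genes, 3.52% were called lower. Among 1847 genes at least as abundant as the lowest of the 35 subunits, 14.5% were called lower and 13.2% higher. The median of the members was -0.30, with a range of -0.48 to -0.12, and the median of all genes was 0.06. The leading genes were Ndufa6 (-0.48, SE 0.071, adjusted p = 0.00312), Ndufb7 (-0.41, SE 0.073, adjusted p = 0.0064) and Ndufa9, a Q-module subunit of the dehydrogenase fold (-0.40, SE 0.054, adjusted p = 0.00256). Ndufa9 was measured at 273, 291 and 288 FPKM with siCtrl and 224, 222 and 240 FPKM with siH19 in BAT and at 142, 139 and 136 FPKM against 151, 145 and 147 FPKM in vWAT, without overlap in either depot. Among the 9 not called were Ndufa2, Ndufa5, Ndufa7, Ndufb2, Ndufs1, Ndufs3, Ndufs8 and the second Ndufa13 entry. Of 38 subunits of complexes III to V, 24 were called lower in BAT, and of 7 mitochondrially encoded subunits 0, with 4 estimates negative and a median of -0.06. The number of members called fell to 14 without BAT siH19 d3 replicate 1 or vWAT siCtrl d3 replicate 3, to 15 without BAT siCtrl d3 replicate 2 or vWAT siH19 d3 replicate 1, and to 17 without BAT siCtrl d3 replicate 3 or BAT siH19 d3 replicate 2. All 36 estimates stayed negative in each of these fits. The counts have no share of all genes from the same fits beside them and are descriptions only.

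The number of members that passed in BAT d3 cells also changed when single libraries were left out. A fit on fewer libraries has less power for every gene. Whether the changes here and in the interaction of depot and siRNA were particular to the members was not tested. The 25 members with an adjusted p under 0.05 became 7 without BAT siCtrl d3 replicate 2 and 9 without BAT siCtrl d3 replicate 3, BAT siH19 d3 replicate 1 or BAT siH19 d3 replicate 2. No share of all genes from the same fits stands beside these counts. The estimates stayed negative in all 36 members, or in 35 without BAT siH19 d3 replicate 2.

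Whether the rise from d0 to d3 in BAT differed with siH19 was tested by the interaction of siRNA and day. Its estimates were negative for 34 of 36 members with a median of -0.15, where the median of all genes was 0.09, but none was called by limma (1.27% of all genes were called lower), and 16 had an unadjusted p under 0.05. The nearest were Ndufa1, a small membrane-spanning subunit (-0.22, SE 0.062, adjusted p = 0.0524), Ndufb3 (-0.24, SE 0.077, adjusted p = 0.0833) and Ndufb11 (-0.22, SE 0.071, adjusted p = 0.0895). Ndufa1 went from 193, 199 and 184 FPKM to 475, 513 and 509 FPKM with siCtrl and from 199, 193 and 196 FPKM to 428, 424 and 459 FPKM with siH19, overlapping at d0 and apart at d3. Of the 2 joined entries outside the set, Ndufa11 was called lower (-0.31, adjusted p = 0.0477 by limma). Ndufb4 was not (-0.07, adjusted p = 0.828). Atp5a1, Cox8b, Uqcrc2 and Uqcrq of complexes III to V and the assembly factor Ndufaf3 were called lower too. The interaction of siRNA and day depended on the scaling of the libraries. After rescaling by median ratios, 9 members were called lower, beside 355 of all 13575 genes tested.

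Several of the genes overlap others in the genome, which bears on how far each value belongs to one gene. Of the 35 subunit genes, 16 overlap another gene of the table, 5 of them on the same strand (Ndufa10, Ndufa13, Ndufb2, Ndufb8 and Ndufc2), and 8 overlap a gene that reached 10 FPKM, in each case on the opposite strand. The labels name a kit that marks strand and the methods of the study one without that word, and whether the counting used strand is not given in the sources used here.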

How the data were processed

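The sample labels gave each library its group and replicate number. Control libraries are titled siKO, while their siRNA field names a non-targeting control, and were taken as siCtrl. The authors mapped reads to GRCm38 with TopHat2 (2.0.10 in the processing notes) and computed expression with Cufflinks within the QuickNGS workflow. The deposited table names no unit and was taken as FPKM, normalized by the authors per length and library. It holds no counts, so fragment depth is unknown and no counting interval was given, and 0 other per-sample columns were present.

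Linear models on log2(FPKM + 1) were fitted with limma 3.58.1 (R 4.3.3, intensity trend), 1 per comparison on its 6 libraries or, for interactions, 12. Genes that reached 1 FPKM in 3 or more of these libraries were tested. P-values were Benjamini-Hochberg adjusted over all genes tested. A gene was called at adjusted p under 0.05 and 1.3-fold, interactions without a minimum fold. Scripts were tested on simulated data. Text, figures and sums used Python 3.11.15.

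The members and lists were chosen with earlier results of these data known. Full statistics were given, per comparison, for the 3 called members with the largest change, or where fewer were called for those with the smallest adjusted p, and outside the members for H19, markers and at most 3 called genes per list. Further members were named by their values, and 1 member enters all fits, sums and counts but is not reported singly here. Alternatives were a pseudocount of 0.1, no filter, median-ratio scaling, 1 fit on all 24 libraries, a replicate block, no minimum fold and leaving out each library. Same-numbered libraries were not shown to be pairs. Coa1, Acta1 and Cox4i1 were not analysed here.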

Additional observations from a re-analysis of the deposited data

Results flagged for a closer look

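The change with siH19 at d3 differed between BAT and vWAT by a test of the difference itself. The interaction of depot and siRNA was called for 27 of 36 members, all lower (limma, adjusted p under 0.05). Of all genes, 3.52% were called lower and 7.02% higher. Among 1847 genes at least as abundant as the lowest of the 35 subunits, these shares were 14.5% and 13.2%. The leading estimates were -0.48 for Ndufa6, -0.41 for Ndufb7 and -0.40 for Ndufa9, each more negative in BAT. The count was 14 without BAT siH19 d3 replicate 1 or vWAT siCtrl d3 replicate 3, 15 without BAT siCtrl d3 replicate 2 or vWAT siH19 d3 replicate 1, and 17 without BAT siCtrl d3 replicate 3 or BAT siH19 d3 replicate 2. No share of all genes from the same fits stands beside these counts, which are descriptions only. The change from d0 to d3 in siCtrl cells also differed between the depots. That interaction was called for 35 of 36 members, all higher, beside 24.9% of all genes called higher and 28.1% lower. Among 2341 genes at least as abundant as the lowest of the 35 subunits, 41.1% were called higher and 33.1% lower. Most nuclear subunits of complexes III to V, mitochondrially encoded subunits and assembly factors were called higher too. The leading estimates were 1.46 for Ndufv2, 1.35 for Ndufab1 and 1.303 for Ndufa6, each larger in BAT. In both cases depot and differentiation medium cannot be told apart. With 3 libraries a group, no single library could be tested for standing apart from its group.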

How the results depend on the processing

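No median over the members and no member given with full statistics changed sign under any alternative run. Median-ratio scaling raised the members called in BAT d3 cells with siH19 from 0 to 4 and in the interaction of siRNA and day from 0 to 9, lowered those called between depots at d0 from 4 to 1, and moved the medians to 2.15 for the rise in BAT siCtrl cells, -0.026 between depots at d0 and 0.99 at d3. It also changed the split of all genes called in BAT d3 cells with siH19 from 799 higher and 272 lower to 616 and 431, and in the interaction of depot and siRNA from 966 and 485 to 620 and 797, and in that of siRNA and day from 1058 and 172 to 486 and 355. In the depot comparison at d0, Ndufv2 (-0.30) and Ndufa4 (-0.28) then fell under 1.3-fold. Without a minimum fold the members called numbered 25 in BAT d3, 1 in BAT d0 and 16 between depots at d0. Without the filter on low FPKM, 17 members were called in the interaction of depot and siRNA, where more genes were tested, and 13 had an adjusted p under 0.05 in BAT d3 cells. In 1 fit on all 24 libraries, 2 were called in the interaction of siRNA and day.

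Leaving out each library in turn gave 0 to 3 members called in BAT d3 cells (3 without BAT siCtrl d3 replicate 1 or BAT siH19 d3 replicate 3), 14 to 28 in the interaction of depot and siRNA, and 0 to 2 in that of siRNA and day (2 without BAT siCtrl d0 replicate 1, BAT siCtrl d3 replicate 1 or BAT siH19 d3 replicate 3, and 1 without BAT siH19 d0 replicate 1). The cause of these changes was not tested. Where no share of all genes is given, the counts of members under the alternatives are descriptions only. Same-numbered libraries of 2 groups had deviations that correlated at -0.14 to 0.09, so the numbers were not taken as pairs. With the replicate number as a block, 18 members were called in the interaction of depot and siRNA and 0 in BAT d3 cells, where 24 had an adjusted p under 0.05. Without the second Ndufa13 entry, an alternative chosen after the data were seen, no result moved beyond its limits. Of the alternatives for the members named with full statistics, 467 kept their side of the threshold, 14 newly passed it and 2 no longer did. Depth is unknown, so it cannot be said which differences it hides.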
